A study of Mus musculus with 4 samples.

Results

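The regions described here carried a peak of histone H3 trimethylated on lysine 4 (H3K4me3) in both Wbp7-/- macrophage libraries and in untreated Wbp7+/- macrophages, and no peak in LPS-treated Wbp7+/- macrophages. They were chosen by the deposited peak calls alone. Peaks of the 4 lists that shared at least 1 bp were joined into 18786 regions, and 337 of these had the pattern. Where a list holds a peak is therefore how the members were selected and not a result. The scores, widths and positions of their peaks entered the choice only through the calls and their overlap. A call needs a score at or above the limit of the peak caller, so the scores are not independent of the choice.

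The cells were primary macrophages grown from bone marrow of mice whose background was 94% C57BL/6 with 6% 129/Ola, taken on day 7 of differentiation. The 4 groups were Wbp7-/- cells with LPS, Wbp7-/- cells untreated, Wbp7+/- cells with LPS and Wbp7+/- cells untreated, and each held 1 library. LPS, lipopolysaccharide, was given at 10 ug/ml for 4 h by the labels. Per the first line of its file, however, the LPS-treated Wbp7+/- library is named for 24 h, whereas that of the LPS-treated Wbp7-/- library gives 4 h. The library labelled Wbp7+/- LPS defines all members by its missing peak, so a difference in exposure time and the pattern itself cannot be told apart. There was no wild type group, so every group lacked at least 1 functional copy of Wbp7. The labels used here do not give the age of the mice, how many mice contributed to a library or how the Wbp7 allele was made. Marker genes of macrophages were not analysed here, since no gene annotation of the mm9 build was used, and no region is tied to a gene.

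H3K4me3 lies mainly at active and poised promoters, where it is laid down by methyltransferases of the MLL and SET1 families. Wbp7, also called Kmt2b, is a member of the MLL family, and the sample titles call it MLL2 and their source names MLL4. LPS is a component of the outer membrane of Gram-negative bacteria that is sensed through Toll-like receptor 4 and switches macrophages to an inflammatory programme, in which some genes are induced and others repressed.

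The lists held 15086 peaks in LPS-treated and 14599 in untreated Wbp7-/- cells, and 17313 in LPS-treated and 17316 in untreated Wbp7+/- cells. The score of a peak is the authors' own value from the peak caller. It grows with enrichment and with sequencing depth, which is unknown, and it piles up at 3100. The 8950 to 9695 peaks per list with scores of 3100 or above were treated as 1 class, called the ceiling. The lowest scores were 50 to 50.03, so a region without a peak is one that stayed under that limit and not one shown to lack the mark. With 1 library per group, no difference has a replicate check and no test between groups was made. The 95% Wilson intervals below cover counting error over regions only.

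Regions that lacked a peak in LPS-treated Wbp7+/- cells alone made up a small share of those found in the other 3 lists. They were 337 of 12631, or 2.67% (2.40 to 2.96), the remaining 12294 having a peak in all 4 lists. The same pattern with another list missing was seen at 245 regions for LPS-treated Wbp7-/- cells, at 453 for untreated Wbp7-/- cells and at 73 for untreated Wbp7+/- cells. The shares of regions found in the respective other 3 lists were 1.95% (1.73 to 2.21), 3.55% (3.25 to 3.89) and 0.590% (0.470 to 0.741). The order of these counts was another with lists of equal length. When every list was cut to the length of the shortest, the 14599 peaks of highest score, the pattern was found at 349 regions for LPS-treated Wbp7+/- cells, and at 169, 221 and 114 in the order given for the others. The members also belong to the 1169 of 16208 regions with a peak in untreated Wbp7+/- cells that had none after LPS, a share of 7.21% over all such regions. Of those 1169 regions, 337 (28.8%) had a peak in both Wbp7-/- lists, 48 in the LPS-treated list alone, 154 in the untreated list alone and 630 (53.9%) in neither.

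The members were low-scoring in untreated Wbp7+/- cells and higher in untreated Wbp7-/- cells. Their median score was 134 in LPS-treated Wbp7-/- cells, 244 in untreated Wbp7-/- cells and 104 in untreated Wbp7+/- cells. The quartiles were 79.7 and 257, 122 and 673, and 71.6 and 169 in the same order. The distributions overlapped widely, and the untreated Wbp7-/- list held the highest of the 3 scores at 240 members (71.2%), while untreated Wbp7+/- cells held the lowest at 182 (54.0%). Placed within its own list, the median member outscored 14.6% of the peaks of LPS-treated Wbp7-/- cells, 19.4% of those of untreated Wbp7-/- cells and 12.02% of those of untreated Wbp7+/- cells. The 2444 regions that had a peak under the ceiling in all 4 lists showed another order, with medians of 313, 344 and 594 in the same 3 lists.

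**Figure D1:**
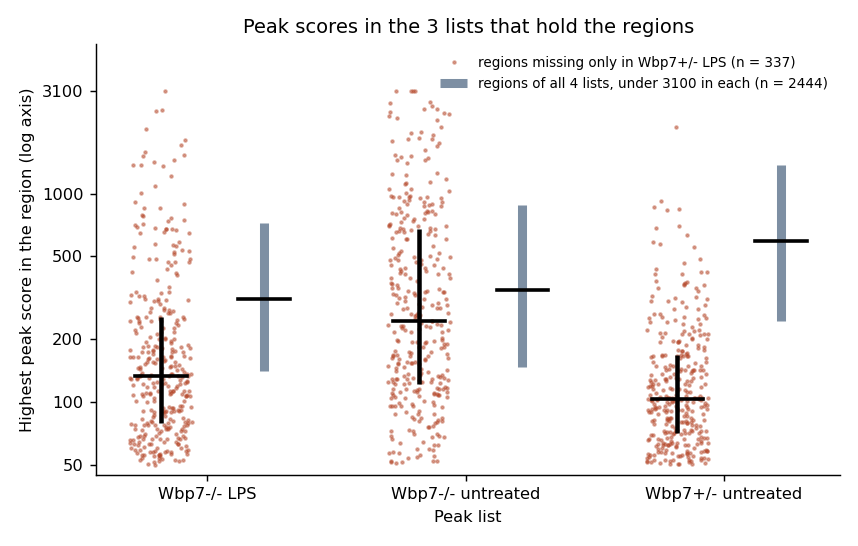
Highest peak score of each region on a log axis, by peak list; each point is 1 of the 337 regions, black bars give their quartiles and median, and the grey bars give the quartiles and median of the 2444 regions with a peak under the ceiling in all 4 lists. The median of the regions missing only in LPS-treated Wbp7+/- cells is 244 in untreated Wbp7-/- cells and 104 in untreated Wbp7+/- cells, against 344 and 594 for the other set.

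In score classes, 118 members scored under 100 in LPS-treated Wbp7-/- cells, 57 in untreated Wbp7-/- cells and 155 (46.0%, 40.7 to 51.3) in untreated Wbp7+/- cells. A score of 500 or more was reached by 46, 103 and 11 members in these lists. None was at the ceiling in untreated Wbp7+/- cells, where 9492 regions of all 4 lists stood, whereas 1 member was at the ceiling in LPS-treated and 4 in untreated Wbp7-/- cells. The members are thus mostly weak peaks, with a minority that is strong in Wbp7-/- cells.

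The share of regions without a Wbp7+/- LPS peak followed the untreated Wbp7+/- score. Among regions of the other 3 lists it was 49.7% (44.2 to 55.2) for an untreated Wbp7+/- score under 100, 15.3% (13.3 to 17.5) from 100 to under 500 and 0.643% (0.360 to 1.15) from 500 to under 3100. At the ceiling it was 0 of 9492. Within the 2 lower classes, the share with a peak in both Wbp7-/- lists was similar to or higher than that with a peak in neither. Among regions with no Wbp7-/- peak it was 50.1% (47.1 to 53.1) under 100 and 9.49% (7.90 to 11.4) from 100 to under 500. Regions with only 1 of the Wbp7-/- lists lay to either side. Where only the LPS-treated Wbp7-/- list held a peak, the share under 100 was 26.5% (20.1 to 34.2), and where only the untreated Wbp7-/- list did it was 70.5% (62.5 to 77.5). In the next class these shares were 3.63% (1.92 to 6.75) and 28.0% (22.1 to 34.7). Regions whose Wbp7-/- peak was called after LPS alone thus lacked the Wbp7+/- LPS peak less often than those called in untreated cells alone. The intervals cover counting error over regions and not the variation between libraries, so this difference was not tested.

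**Figure D2:**
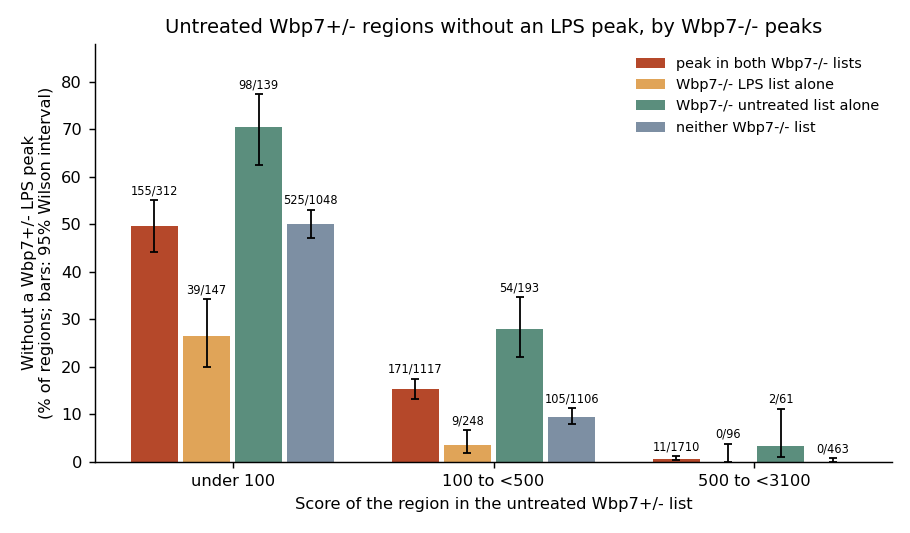
Share of untreated Wbp7+/- regions that had no Wbp7+/- LPS peak, in percent with 95% Wilson intervals, by untreated Wbp7+/- score and by the Wbp7-/- lists that hold a peak; the counts stand above the bars. The first bar of each class holds the 155, 171 and 11 regions described here. The share is highest where the untreated Wbp7-/- list alone has a peak, at 70.5% under 100.

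In the 2 lower classes of untreated Wbp7+/- score, the share of missing peaks was also higher where the untreated Wbp7-/- score was higher, up to the ceiling. Among regions scoring under 100 in untreated Wbp7+/- cells, 36 of 100 (36.0%, 27.3 to 45.8) lacked the Wbp7+/- LPS peak where untreated Wbp7-/- cells scored under 100 too. The numbers were 88 of 165 (53.3%, 45.7 to 60.8) where they scored 100 to under 500, and 29 of 45 (64.4%, 49.8 to 76.8) where they scored 500 to under 3100. For untreated Wbp7+/- scores from 100 to under 500 the shares were 9.13% (6.05 to 13.6), 13.7% (11.3 to 16.6) and 25% (20.0 to 30.8). At the untreated Wbp7-/- ceiling the regions were few, with 2 of 2 and 2 of 9 lacking the peak in these classes. For untreated Wbp7+/- scores from 500 to under 3100 the shares were 0 of 106, 2 of 545, 9 of 873 and 0 of 186 from the lowest to the highest untreated Wbp7-/- class, with no steady order.

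At the members, the untreated Wbp7-/- score exceeded the untreated Wbp7+/- score more often than at other regions. It was higher at 266 of the 333 members under the ceiling in both lists (79.9%), and at least 2-fold higher at 175 (52.6%). Over all 3335 regions under the ceiling in both lists, the score was higher in Wbp7-/- cells at 36.4% and at least 2-fold higher at 15.6%. The median log2 ratio of untreated Wbp7-/- over untreated Wbp7+/- score was 1.07 at the members and -0.41 over all 3335. Members have low untreated Wbp7+/- scores, so the ratio was also taken within classes. Under 100 its median was 1.15 at 153 members and 0.68 at 157 regions of all 4 lists. From 100 to under 500 it was 1.02 at 169 members and -0.23 at 939 regions of all 4 lists. Widths differed as well: untreated Wbp7-/- peaks covered more bases than untreated Wbp7+/- peaks at 289 of 337 members (85.8%, 81.6 to 89.1). At regions of all 4 lists this held for 7621 of 12294 (62.0%, 61.1 to 62.8), most of them at the ceiling. Within the class under 100, the Wbp7-/- peak was narrower at 11.1% of members and 22.9% of regions of all 4 lists. From 100 to under 500 these shares were 17.2% and 38.8%. With lists of equal length the median log2 ratio was 0.39 over the 349 regions of the pattern. Only 113 of these were members, and none scored under 100 in untreated Wbp7+/- cells, so the set is largely another. The size of the ratio thus depended on how the lists were cut.

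Members were narrow. Their median covered width was 1075 bp in LPS-treated Wbp7-/- cells, 1252 bp in untreated Wbp7-/- cells and 885 bp in untreated Wbp7+/- cells, and the full ranges were 321 to 5501, 346 to 4889 and 223 to 3318 bp. Regions of all 4 lists had medians of 2327, 2355 and 2239 bp in these lists. Within a score class the widths lay closer together. For untreated Wbp7+/- scores from 100 to under 500 the median width in that list was 1011 bp at members and 1007.5 bp at regions of all 4 lists. Under 100 it was 669 and 771 bp. A single peak per list made up 327, 328 and 329 of the 337 members in the 3 lists, so few members joined several peaks of 1 list.

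In Wbp7-/- cells the peak was kept after LPS, by the choice of members, but its score was mostly lower. It was lower after LPS at 276 of the 333 members under the ceiling in both Wbp7-/- lists (82.9%) and at least 2-fold lower at 138 (41.4%). Over all 3923 regions under the ceiling in both lists, 64.3% were lower and 17.5% at least 2-fold lower. The median log2 ratio of LPS-treated over untreated Wbp7-/- score was -0.78 at the members, -0.24 at the 3129 regions of all 4 lists and -0.27 over all 3923. Depth differs between the 2 libraries by an unknown amount, so the members' value has meaning only beside those of the other regions.

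The members' ratio lay below that of regions of all 4 lists in each of the 3 score classes. For untreated Wbp7-/- scores under 100, the median log2 ratio was -0.01 at 57 members and 0.54 at 397 regions of all 4 lists. From 100 to under 500 it was -0.81 at 177 members and -0.18 at 1271 other regions. From 500 to under 3100 it was -1.29 at 99 members and -0.39 at 1461 other regions. The ratio at low scores is bounded from below, since a score under 50 would have removed the region from the set. Widths differed less, with LPS-treated Wbp7-/- peaks narrower than untreated ones at 250 of 333 members (75.1%) and at 57.7% of the 3129 regions of all 4 lists. The LPS-treated Wbp7-/- library is labelled 4 h in every source, so this difference between its score and the untreated one does not rest on the doubtful exposure time, other than through the choice of members.

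**Figure D3:**
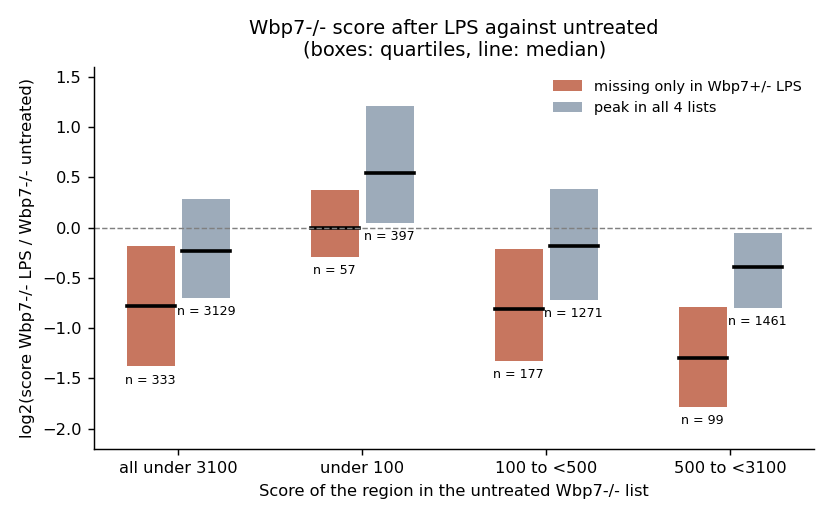
log2 ratio of the LPS-treated over the untreated Wbp7-/- score, by untreated Wbp7-/- score class; boxes span the quartiles and lines mark medians. Regions missing only in LPS-treated Wbp7+/- cells lie below those with a peak in all 4 lists in each class, with medians of -1.29 and -0.39 from 500 to under 3100.

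In their Wbp7-/- score ratio, the members continued a gradient across the regions that kept their peak. Regions of the other 3 lists with an untreated Wbp7+/- score from 100 to under 500 were ordered by their Wbp7+/- LPS score. The median log2 ratio in Wbp7-/- cells was -1.002 at the 169 members, -0.42 at the 194 regions with a Wbp7+/- LPS score under 100, -0.17 at the 652 from 100 to under 500 and 0.74 at the 79 from 500 to under 3100. For untreated Wbp7+/- scores under 100, the values were -0.51 at 153 members, -0.23 at 88 regions and 0.21 at 63 regions in the same order. From 500 to under 3100 the members were only 11, with a median of -2.42, next to -1.15 at 9 regions, -0.63 at 281, -0.20 at 1074 and 1.03 at 66 regions. The 11 and the 9 are too few to place that end of the line. The Wbp7-/- ratio and the Wbp7+/- LPS score share no library. In the 2 lower classes, the step of the ratio from the members to the regions under 100 went mainly with the untreated Wbp7-/- score. Later steps did not. From 100 to under 500, ceiling included, its medians were 343, 205, 189 and 199 in the same order. Those of the LPS-treated Wbp7-/- score were 146, 147, 175 and 490. Under 100 the first 3 medians were 160, 134 and 107 untreated, and 119, 116 and 145 after LPS. In the highest class the members were lowest after LPS as well, at 184, next to 778 and 460.

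**Figure D4:**
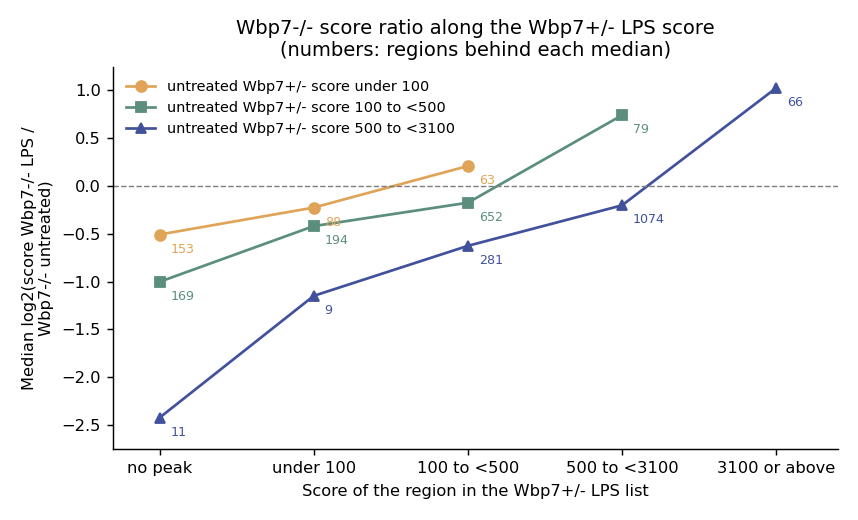
Median log2 ratio of the LPS-treated over the untreated Wbp7-/- score against the Wbp7+/- LPS score of the same regions, in 3 classes of untreated Wbp7+/- score; the leftmost points are the regions described here, numbers give the regions behind each median, and medians over fewer than 5 regions are not drawn. Each line runs upward, from -1.002 to 0.74 in the class from 100 to under 500.

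The limit of the peak caller decides membership. Just outside the rule stood the regions of all 4 lists with the lowest Wbp7+/- LPS scores. The lowest was 50.5, on chromosome 5 from 90933660 to 90934781 (mm9, counted from 1), and the region scored 185, 302 and 55.3 in LPS-treated Wbp7-/-, untreated Wbp7-/- and untreated Wbp7+/- cells. The next 4 scored 50.8 to 51.2 in the Wbp7+/- LPS list. Beside the 337 members without a peak, 64 regions of all 4 lists scored under 60 there and 298 under 100. Members had median scores of 134, 244 and 104 in LPS-treated Wbp7-/-, untreated Wbp7-/- and untreated Wbp7+/- cells, and the 64 regions had 121, 209 and 115 in the same lists.

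By position, the nearest to being excluded was the member on chromosome 2 from 140924514 to 140925438, which lay 62 bp from a Wbp7+/- LPS peak and scored 58.1, 56.0 and 104 in LPS-treated Wbp7-/-, untreated Wbp7-/- and untreated Wbp7+/- cells. A second, on chromosome 12 from 66070281 to 66070918, lay 67 bp from one. Of all members, 34 (10.1%, 7.31 to 13.8) had a Wbp7+/- LPS peak within 1 kb and 105 (31.2%, 26.4 to 36.3) within 5 kb, and the median distance was 13.8 kb. The median log2 ratio of LPS-treated over untreated Wbp7-/- score was taken under the ceiling. It was -0.82 for the 303 members without a Wbp7+/- LPS peak within 1 kb and -0.38 for the 34 others. Distances to the nearest region of all 4 lists were similar, with a median of 15.3 kb, 13.4% (10.1 to 17.4) within 1 kb and 29.4% (24.8 to 34.5) within 5 kb. For regions of all 4 lists the median distance to another such region was 24.7 kb, with 4.66% (4.30 to 5.05) within 1 kb and 16.5% (15.8 to 17.1) within 5 kb.

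The 20 members named below had the highest lowest score over their 3 lists, and lay on 14 chromosomes. Untreated Wbp7-/- cells scored above LPS-treated Wbp7-/- cells at 18 of them and above untreated Wbp7+/- cells at 19. Over all regions under the ceiling in the lists compared, the shares were 64.3% and 36.4%. The first of the 20, on chromosome 8 from 127809760 to 127812138, scored 1532 in LPS-treated Wbp7-/-, 2344 in untreated Wbp7-/- and 861 in untreated Wbp7+/- macrophages. Its peaks covered 1918, 2379 and 1299 bp in the same lists. The nearest Wbp7+/- LPS peak was 180427 bp away.

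The order seen there, with untreated Wbp7-/- highest and untreated Wbp7+/- lowest, held at 11 of the 20, and untreated Wbp7+/- was lowest at 13. The region on chromosome 19 from 45648930 to 45650742 scored 854, 1827 and 437 in LPS-treated Wbp7-/-, untreated Wbp7-/- and untreated Wbp7+/- cells. On chromosome 18, that from 32566017 to 32568462 scored 576, 1517 and 413, and that from 38330843 to 38332564 scored 1207, 1969 and 368. These 3 had the same order. The region on chromosome 14 from 41768262 to 41770932 scored 558, 913 and 352 and was broader, with 2494, 2309 and 2025 bp. On chromosome 12, that from 113181258 to 113182383 scored 855, 1743 and 319. The region on chromosome 11 from 74965942 to 74967121 was among those that departed from the order, with 337, 1051 and 411. There the LPS-treated Wbp7-/- score was the lowest of the 3.

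The member with the highest untreated Wbp7+/- score was on chromosome 17 from 34700911 to 34702571. It scored 312 in LPS-treated Wbp7-/-, 1839 in untreated Wbp7-/- and 2084 in untreated Wbp7+/- macrophages. The log2 ratio of untreated Wbp7-/- over untreated Wbp7+/- score was -0.18, and the log2 ratio of LPS-treated over untreated Wbp7-/- score was -2.56. A neighbouring region, whose Wbp7+/- LPS peak lay 2245 bp away, had a peak in all 4 lists and also scored lower after LPS, at 633 in Wbp7-/- and 236 in Wbp7+/- cells, against 1910 and 1745 in untreated cells of these genotypes.

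The chromosome 17 member was among the 11 members scoring 500 or more in untreated Wbp7+/- cells. All 11 scored lower after LPS than untreated in Wbp7-/- cells, against 64.3% of all 3923 regions under the ceiling in both lists. At the same untreated Wbp7+/- scores, regions with a Wbp7+/- LPS peak under 100 were lower at 100% of 9. Those from 100 to under 500 were lower at 80.8% of 281, and those from 500 to under 3100 at 62.8% of 1074. On chromosome 9, the member from 57280616 to 57283051 scored 59.4 in LPS-treated Wbp7-/-, 1049 in untreated Wbp7-/- and 575 in untreated Wbp7+/- macrophages. On chromosome 5, that from 92782084 to 92783104 scored 56.0, 800.1 and 684, and on chromosome 12, that from 104672203 to 104674058 scored 184, 2539 and 556. The first 2 lay near the limit of the caller in LPS-treated Wbp7-/- cells. The member on chromosome 9 from 37058910 to 37060642, with 108, 684 and 919, lay 249 bp from a Wbp7+/- LPS peak. The smallest difference of the 11 was on chromosome 4 from 129042160 to 129043361, with 111 in LPS-treated and 128 in untreated Wbp7-/- cells, beside 832 in untreated Wbp7+/- cells.

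At the other end were 4 members at the ceiling in untreated Wbp7-/- cells, singled out after their values were seen. The region on chromosome 11 from 117685072 to 117690790 was at 3100 in both Wbp7-/- lists, with a peak of 2934 bp after LPS and of 3363 bp untreated, and scored 305 over 1835 bp in untreated Wbp7+/- cells. A separate peak of 2567 bp with a score of 104 brought the bases covered after LPS in Wbp7-/- cells to 5501. The chromosome 6 region from 72111502 to 72115571 scored 2046 in LPS-treated Wbp7-/-, 3100 in untreated Wbp7-/- and 262 in untreated Wbp7+/- macrophages, and covered 4066, 3838 and 2514 bp. The remaining 2 were close to the caller's limit in untreated Wbp7+/- cells. The region on chromosome 4 from 138416846 to 138419822 scored 1455, 3100 and 63.7, and that on chromosome 7 from 145362058 to 145363267 scored 2513, 3100 and 73.1. The region on chromosome 7 was also the member farthest from a Wbp7+/- LPS peak, at 673 kb. A score at its ceiling gives no ratio between treatments.

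The widest members in untreated Wbp7+/- cells were mostly weak. The peak on chromosome 13 from 37936747 to 37940064 covered 1677 bp in LPS-treated Wbp7-/-, 2775 bp in untreated Wbp7-/- and 3318 bp in untreated Wbp7+/- macrophages, with scores of 58.0, 81.6 and 213. That on chromosome 4 from 144493311 to 144497627 covered 1076, 3820 and 2476 bp, with scores of 60.5, 326 and 82.3. Both had their narrowest and lowest-scoring peak in LPS-treated Wbp7-/- cells.

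A smaller group went the other way in Wbp7-/- cells. The Wbp7-/- score was higher after LPS than untreated at 57 members (16.9%, 13.3 to 21.3), against 35.7% over all 3923 regions under the ceiling in both lists. It was at least 2-fold higher at 9, or 2.70% of the 333 members under the ceiling, against 8.46%. The strongest of the 9 was on chromosome 1 from 136697267 to 136700574, with 2477 in LPS-treated and 930.2 in untreated Wbp7-/- cells and 253 in untreated Wbp7+/- cells, and no Wbp7+/- LPS peak nearer than 150984 bp. The chromosome 5 region from 106123053 to 106125993 scored 685 in LPS-treated and 198 in untreated Wbp7-/- cells and 183 in untreated Wbp7+/- cells. Both were widest after LPS in Wbp7-/- cells, at 3308 and 2941 bp.

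**Figure D5:**
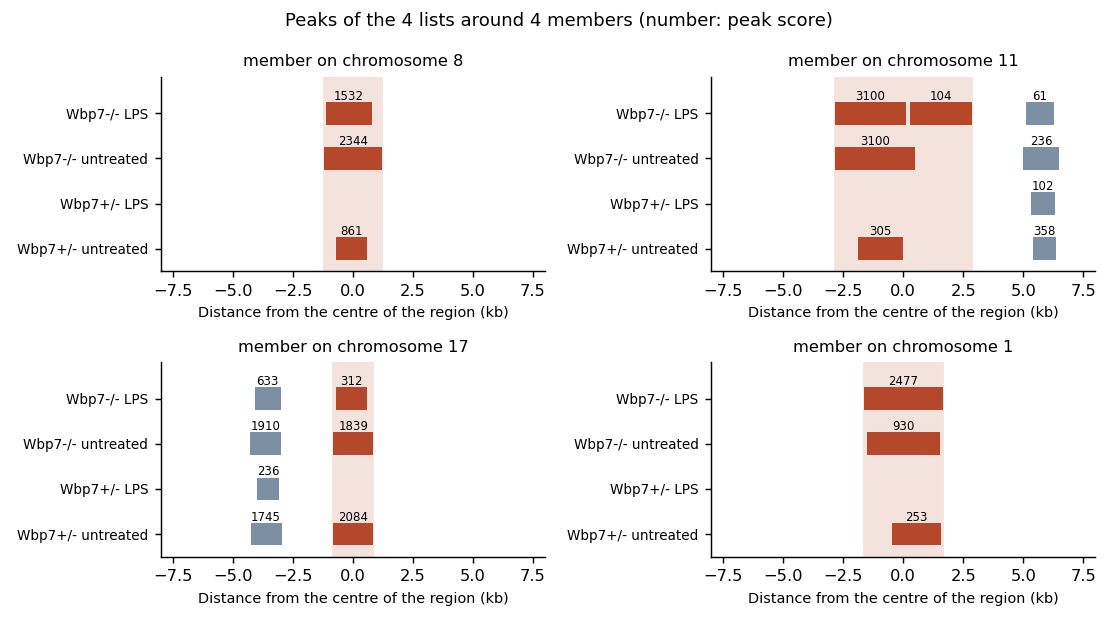
Peaks of the 4 lists within 8 kb of the centre of 4 members, one row per list, with the score above each peak; red bars overlap the member (shaded) and grey bars are neighbouring peaks. The row of LPS-treated Wbp7+/- cells is empty within each member, while its peak beside the member on chromosome 17 scores 236.

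Members lay on all 20 chromosomes represented, with 5 to 29 on each. As a share of the regions of the other 3 lists they made up 1.28% (0.547 to 2.96) on chromosome 16, the lowest, and 4.15% (2.64 to 6.46) on chromosome 12, the highest. The interval of each of the 20 chromosomes held the 2.67% of the whole set.

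The 3 classes that lack another single list shared a trait with the members: the lowest median score was in the other list of the genotype without the peak. It was 104 in untreated Wbp7+/- cells for the members. It was 72.5 in untreated Wbp7-/- cells, 88.2 in LPS-treated Wbp7-/- cells and 88.1 in LPS-treated Wbp7+/- cells for the regions that miss the partner list. The last value, over 73 regions, was close to their 90.6 in untreated Wbp7-/- cells. The regions missing only in LPS-treated Wbp7-/- cells, the counterpart in the other genotype, had a median of 72.5 in untreated Wbp7-/-, 159 in LPS-treated Wbp7+/- and 217 in untreated Wbp7+/- cells. Their untreated scores differed between the genotypes in the other direction. The log2 ratio of untreated Wbp7-/- over untreated Wbp7+/- score had a median of 1.07 at the members, with Wbp7-/- higher at 79.9%. Over 239 regions of the counterpart it was -1.49, with Wbp7-/- lower at 89.1%. For regions of all 4 lists the ratio was itself negative, with a median of -0.51 over 2609 and Wbp7-/- lower at 67.6%. The counterpart's -1.49 lay closer to that value than the members' 1.07 did. At the counterpart the log2 ratio of LPS-treated over untreated Wbp7+/- score had a median of -0.37 over 239 regions, against -0.31 over 2654 regions of all 4 lists. From 100 to under 500 in untreated Wbp7+/- cells it was -0.55 over 139 regions and -0.38 over 934. The members' distance from the regions of all 4 lists in Wbp7-/- cells, -0.78 against -0.24, was thus larger than that of the counterpart in Wbp7+/- cells, and no test of this difference was possible with 1 library per group.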

How the data were processed

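H3K4me3 chromatin immunoprecipitation sequencing was done on 4 libraries, 1 per group, grouped by sample title. Per the labels' protocols, cells were fixed with 1% formaldehyde for 10 min and 10 ug of antibody was used. Reads were aligned with Bowtie to mm9, per the submitters' processing notes, and peaks were called in each library separately with MACS, per the file headers. Versions, thresholds and depth were not given in the sources used here. The authors deposited a score per peak, by the convention of MACS a multiple of the negative log10 of its p-value. Peaks were joined with bedtools 2.31.1 (merge -d -1), and a region's score in a list is its highest peak score there. Score classes start at 100, 500 and 3100. Ratios were taken only under 3100, a fold means at least 2, and distances run from edge to edge. Named were the 20 members with the highest lowest score, the 5 nearest to a Wbp7+/- LPS peak, the 5 with the widest untreated Wbp7+/- peak and the 5 regions just outside; not all are printed. Members and lists were chosen with earlier results of these data known. The joining was tested on 4 copies of 1 list, shifted by a few bp, with 200 peaks taken out of 1 copy. All 200 were found, with 0 false regions. These copies do not differ in peak width or splitting as the real lists do, so the test covers the code only. Intervals are from scipy 1.17.1, with Python 3.11.15, pandas 2.3.3, numpy 2.4.6 and matplotlib 3.10.9. Planned gene lists and cell type markers were not run, and no sequence is printed, since an mm9 genome and annotation were not used here.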

Additional observations from a re-analysis of the deposited data

Results flagged for a closer look

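At 57 members the Wbp7-/- score was higher after LPS than untreated, while Wbp7+/- cells had a peak untreated and none after LPS. At 9 of them the Wbp7-/- score after LPS was at least 2 times the untreated one. These were picked out because the Wbp7-/- score was higher where the Wbp7+/- peak was lost. That loss is how all members were selected, so it is no result of these 57. Both groups were rarer than over all 3923 regions under the ceiling in both Wbp7-/- lists, at 16.9% against 35.7% and 2.70% against 8.46%. The 9 had a median untreated Wbp7+/- score of 73.2, near the limit of the caller. The difference between genotypes was not tested: a single library stood behind each treatment of each genotype. Of the 9, 4 scored under 100 in untreated Wbp7-/- cells, where the regions of all 4 lists were also higher after LPS, with a median log2 ratio of 0.54. No group was large enough to look for outlying samples.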

How the results depend on the processing

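Alternative settings gave 50 values for 9 results, 12 of them chosen after seeing the data. Of the 50, 29 stayed within 1.5 times the reported count or within the 95% interval of the reported share or median, and 21 did not. The median log2 ratios, the only results that could change sign, did not. The 337 regions numbered 261 to 426 under 5 alternatives. With peaks under 100 dropped from the 3 other lists they numbered 127, and regions missing only in LPS-treated Wbp7-/-, untreated Wbp7-/- or untreated Wbp7+/- cells 37, 136 and 9. That alternative can only remove members; their median Wbp7+/- width was then 1016 bp and the median log2 ratios -1.08 (Wbp7-/- LPS over untreated) and 1.37 (untreated Wbp7-/- over Wbp7+/-). With such peaks dropped from every list, regions missing only in untreated Wbp7-/- or Wbp7+/- cells numbered 297 and 40, and the width was 1041 bp. With lists of equal length these counts were 221 and 114, the share under 100 was 0% by construction, the width 1051 bp and the genotype ratio 0.39. Requiring 50% of the region to be covered gave 143 regions missing only in untreated Wbp7+/- cells, a share under 100 of 27.0%, a width of 1122 bp, a genotype ratio of 0.84 and a distance to the nearest Wbp7+/- LPS peak of 1182 bp, which was 18326 bp with peaks joined within 1 kb. The cause of these differences was not tested. Membership moved more than the count: of the 337, 113 were found again with lists of equal length and 242 with 50% of the region covered. No paired analysis was possible because each group held 1 library, and no replicate or the doubtful Wbp7+/- LPS list could be left out.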

Other observations

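The closest pair of members was on chromosome 12, from 88172338 to 88174819 and from 88175029 to 88175676, with 209 bp between them. In LPS-treated Wbp7-/-, untreated Wbp7-/- and untreated Wbp7+/- cells the first scored 59.3, 197 and 129, and the second 139, 129 and 54.0. On chromosome 9, the member from 56726524 to 56730884 had a peak of 4361 bp and a score of 1614 in untreated Wbp7-/- cells, but 491 bp and 69.0 after LPS, beside 701 bp and 144 in untreated Wbp7+/- cells. On chromosome 6, the member from 121286311 to 121288048 scored 1511 in LPS-treated and 2077 in untreated Wbp7-/- cells, against 67.1 in untreated Wbp7+/- cells.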
